A study of Mus musculus with 12 samples.

Results

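The urea cycle enzymes examined here are the 5 genes Nags, Cps1, Otc, Ass1 and Asl, chosen by name among the 11289 genes of a table of mouse liver RNA sequencing. All 5 were in the table, and none was at 0 or at the largest score of the table in any mouse. The study compared livers of C57BL/6J mice in a control group, a Con A + PBS group and a Con A + hWJ-MSCs group (labelled Ctrl, Con A and Con A + MSCs), with 4 mice in each. The sample labels describe Con A given through the tail vein at 15 mg/kg, PBS or 2000000 cells infused 30 min after it, and livers taken at 24 h from mice of 8 to 10 weeks. The study's text gives fewer cells and younger male mice, and for the control group the labels name no injection. Con A is a plant lectin that activates T cells and causes acute hepatitis in mice, and hWJ-MSCs are mesenchymal stromal cells from the Wharton's jelly of the human umbilical cord.

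The urea cycle turns ammonia, which is toxic, into urea, and in mammals the whole cycle runs mainly in hepatocytes. Nags makes N-acetylglutamate, without which Cps1 is inactive. Cps1 joins ammonia and bicarbonate into carbamoyl phosphate in the mitochondria, and Otc transfers it to ornithine to form citrulline. Citrulline then leaves the mitochondria, Ass1 couples it to aspartate, and Asl splits the product into arginine and fumarate. The cycle is strongest in the hepatocytes around the portal vein, while those around the central vein take up remaining ammonia with glutamine synthetase.

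Transcripts of 3 enzymes of the cycle were called lower after Con A, as were 19.2% of all genes. Otc fell 9.23-fold, Ass1 fell 5.43-fold and Asl fell 1.95-fold in Con A + PBS livers, while Nags was lower by less than the fold that was required. The control and Con A + PBS mice overlapped for Asl, and its call depended on single mice. With hWJ-MSCs Otc was 3.20-fold higher than with PBS, a call that depended on single mice, and Ass1 and Asl stayed near their Con A + PBS level. For Cps1 the table held a single value in all 12 mice, so it did not leave its step of the score scale, and changes within that step could not be read. In whole liver, fewer hepatocytes and less RNA per hepatocyte cannot be told apart.

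In mm10 coordinates as listed in the table, Nags lies on chromosome 11 from 102145513 to 102149477 on the plus strand, with 4 exons in the listed transcript. Cps1 lies on chromosome 1 from 67123026 to 67231259 (plus strand, 38 exons), Otc on chromosome X from 10252305 to 10321024 (plus strand, 10 exons) and Ass1 on chromosome 2 from 31470207 to 31520672 (plus strand, 16 exons). Asl lies on chromosome 5 from 130011258 to 130024381 (minus strand, 17 exons). Each listed transcript was found in GENCODE M21 with the same ends. The transcript listed for Nags is annotated as a processed transcript with no coding region, so its score may not stand for the coding transcript. An antisense gene, Gm11586, covers 698 bases of Nags from 102145549 to 102146246, and the library kit does not mark strand, so reads from these genes cannot be told apart there.

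RefSeq's promoter table (GRCm38.p6) held 3 of the 5 members. The promoters of Nags and Otc are shown because only for these 2 was the RefSeq start also the start of the listed transcript. The RefSeq start of Ass1 lay 63 bases inside its listed transcript. Each window is the 250 bases before the start on the plus strand, chr11:102145263-102145512 for Nags and chrX:10252055-10252304 for Otc, written 5′ to 3′ with motif matches in capitals.
Nags: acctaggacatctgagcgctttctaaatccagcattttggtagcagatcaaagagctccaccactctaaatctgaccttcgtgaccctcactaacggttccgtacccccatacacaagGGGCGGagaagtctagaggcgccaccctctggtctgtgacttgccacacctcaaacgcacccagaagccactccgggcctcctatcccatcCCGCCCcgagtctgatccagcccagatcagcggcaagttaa
Otc: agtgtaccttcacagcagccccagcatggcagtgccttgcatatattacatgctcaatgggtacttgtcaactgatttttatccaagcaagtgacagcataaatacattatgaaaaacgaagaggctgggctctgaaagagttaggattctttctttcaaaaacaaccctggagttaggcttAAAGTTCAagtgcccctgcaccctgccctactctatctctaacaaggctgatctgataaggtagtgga
The capitals in Nags mark 2 GC boxes (GGGCGG, the second on the minus strand), a motif found in 32.7% of 32851 promoters of this length. Those in Otc mark 1 match to the letters AAAGNNCA of an HNF4 site, found in 17.1% of them. No match overlapped another. The C/EBP core TTGCNNAA (9.56% of promoters), the CRE letters TGACG (17.8%) and the CCAAT box (33.8%) had no match on either strand of these windows. The HNF4 and GC box letters were added to the search after the sequences had been seen, and a match of letters is not a binding site.

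The deposited value of a gene is a whole-number score that the authors had already normalized between mice, so it is not a read count, its depth is unknown and no counting error can be given. Ranked from highest to lowest, the scores of the 12 mice were the same number at each of the highest 8024 ranks, and at 82.1% of all ranks. A member's score was therefore a place on a ladder that all mice shared. The steps were wide at the top. The 10 highest genes of every mouse shared the score 341028, the next 10 lay close to Cps1 at 147960, and 10 ranks further down the score was 72783. High genes also moved along the ladder mostly by whole blocks of 10 ranks, since 648 of the 764 genes whose place could be followed in at least 6 mice kept the same place within their block. The members differed in how finely they could be read. Of the members that moved, Ass1 took 10 distinct scores in the 12 mice, Nags and Otc took 11 each, and Asl took 12.

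**Figure D1:**
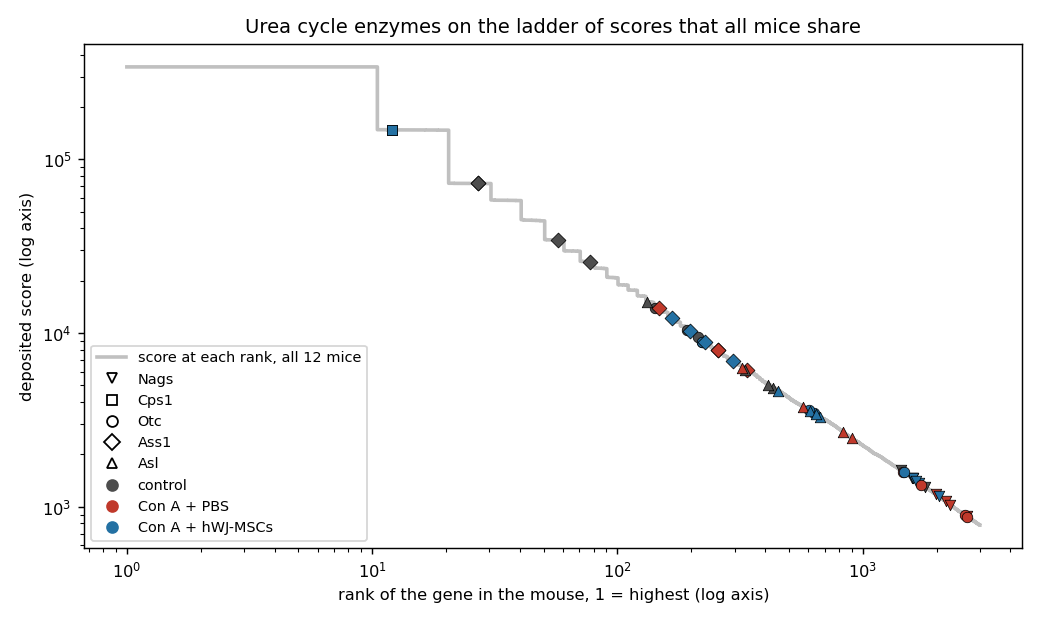
Deposited score (y axis, log scale) against the rank of the gene in its mouse (x axis, log scale, 1 is the highest) for the highest 3000 ranks. The grey line is the score at each rank, which all 12 mice shared, marker shapes are the 5 enzymes and colours are the 3 groups. Cps1 sits at rank 12 in every mouse, between the steps of 341028 and 72783, and Ass1 and Otc spread over the longest stretches of the log rank axis.

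In the control livers Ass1 had the highest median score per kilobase of transcript, 31600, with a range of 15200 to 42900 over the 4 mice. Cps1, at 26600, lay inside that range, so the order of these 2 genes was not resolved. Otc was at 4270 (3850 to 6020) and Asl at 3070 (2650 to 8290), which overlapped each other. Nags was lowest at 538, with no mouse above 598. Whether the scores had already been corrected for transcript length is not given in the sources used here.

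The values of the mitochondrial steps are given first. Nags had scores of 1466, 1456, 1624 and 1300 in the control mice, 1072, 1176, 1028 and 881 in the Con A + PBS mice, and 1374, 1456, 1408 and 1146 in the Con A + hWJ-MSCs mice. All Con A + PBS mice were below all control mice, and 3 of the 4 Con A + hWJ-MSCs mice lay within the control range. Against control, Nags in the Con A + PBS mice differed by a log2 fold change of -0.49 (SE 0.12, 95% interval -0.75 to -0.24, limma Benjamini-Hochberg adjusted p = 0.00343). This was a 1.41-fold lower score, under the 1.5-fold that a call required. With hWJ-MSCs the difference from Con A + PBS was 0.37 (SE 0.12, interval 0.12 to 0.63, limma adjusted p = 0.0528) and was not called. Relative to the control mice the cell-treated mice differed by -0.12 (interval -0.37 to 0.13, limma adjusted p = 0.439).

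Cps1 had a score of 147960 in each of the 12 mice, always at rank 12. Besides Cps1, Alb was the only gene of the table with 1 score in all mice, and Alb was at the largest score. A move of Cps1 by 10 ranks would have given 341028 or 72783, and no mouse of any group showed one, whereas changes that kept it between these steps could not be seen. Apoa1, the gene of a plasma apolipoprotein, was at 147628 on the same step in the control mice and at 34316 to 58038 in the Con A + PBS mice. Since the fold change of 0 for Cps1 may hide a change within its step, medians over the members are given without Cps1.

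For Otc the control mice had scores of 13961, 8920, 10370 and 9428, a mean of 10670 ± 2275 (SD, n = 4). The Con A + PBS mice had 899, 1592, 875 and 1337, a mean of 1176 ± 349 (SD, n = 4). The Con A + hWJ-MSCs mice had 3452, 8920, 3596 and 1582, a mean of 4388 ± 3158 (SD, n = 4). The control and Con A + PBS mice were far apart, with no overlap. The mice that received cells were spread from the upper Con A + PBS level, which 1 mouse did not exceed, to the lower edge of the control range, which another mouse reached. From control to Con A + PBS the log2 fold change of Otc was -3.21 (SE 0.40, interval -4.08 to -2.33, limma adjusted p = 4.0e-05), and the exact permutation test gave the smallest p that 4 against 4 mice allow, 0.0286. Between the Con A mice with and without cells it was 1.68 (SE 0.40, interval 0.80 to 2.55, limma adjusted p = 0.0270), with an exact permutation p of 0.0571. In the mice with cells Otc remained lower than in control, by a log2 fold change of -1.53 (SE 0.40, interval -2.40 to -0.66, limma adjusted p = 0.00948). The cell-treated and control mice overlapped, with an exact permutation p of 0.0571. Otc was no longer called higher with cells when only the 8 mice given Con A were fitted (limma adjusted p = 0.0535). The call was also lost in 6 of the 12 fits that left out 1 mouse, those without Con A + PBS 1, 3 or 4 and those without Con A + hWJ-MSCs 1, 2 or 3. Its value in the 12 fits ran from 1.25 to 2.08.

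In the cytosolic steps, Ass1 had scores of 72700, 34334, 25790 and 72700 in control mice and of 6150, 7936, 7936 and 13926 in Con A + PBS mice. The Con A + hWJ-MSCs mice had 10336, 12202, 8890 and 6932. All 8 mice given Con A lay below the lowest control mouse, and the Con A + hWJ-MSCs mice all lay within the Con A + PBS range. The group means were 51381 ± 24863, 8987 ± 3399 and 9590 ± 2231 (SD, n = 4 each). Con A changed Ass1 by a log2 fold change of -2.44 (SE 0.35, interval -3.20 to -1.68, limma adjusted p = 1.0e-04; exact permutation p = 0.0286). The difference with hWJ-MSCs was 0.13 (SE 0.35, interval -0.63 to 0.89, limma adjusted p = 0.817), an interval that includes changes of up to 0.89 on the log2 scale. Against control, Ass1 in the Con A + hWJ-MSCs mice was still 4.95-fold lower, with a log2 fold change of -2.31 (SE 0.35, limma adjusted p = 3.0e-04; exact permutation p = 0.0286).

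Asl had scores of 15125, 4840, 5047 and 6164 in the control mice. Scores in the Con A + PBS mice were 2700, 2474, 3751 and 6329, and in the Con A + hWJ-MSCs mice 4663, 3547, 3273 and 3406. Con A + PBS mouse 4, at 6329, lay above 3 of the 4 control mice, and control mouse 1 was well above the others. These 2 mice had the highest Asl score of their group, and fits without both of them were added after seeing the data. Asl was called lower in the Con A + PBS group than in control, by a log2 fold change of -0.96 (SE 0.36, interval -1.74 to -0.18, limma adjusted p = 0.0367), while the exact permutation p was 0.114. The call was lost when only the 8 mice compared were fitted (limma adjusted p = 0.0718) and in the fits without control 1, control 4, Con A + PBS 1, Con A + PBS 2 or Con A + PBS 3. Over all 12 fits that left out 1 mouse the fold change of Asl ran from -1.24, without Con A + PBS 4, to -0.58, without control 1. Without both control 1 and Con A + PBS 4 it was -0.86 (limma adjusted p = 0.00266), and Asl was called. With hWJ-MSCs the difference from Con A + PBS was 0.05 (SE 0.36, interval -0.72 to 0.83, limma adjusted p = 0.931). The Con A + hWJ-MSCs mice all lay below the control mice (exact permutation p = 0.0286), but the log2 fold change of -0.91 was not called (SE 0.36, interval -1.68 to -0.13, limma adjusted p = 0.0598). That difference was called with only the 8 mice (limma adjusted p = 0.0472) and in 3 of the 12 fits with 1 mouse left out.

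**Figure D2:**
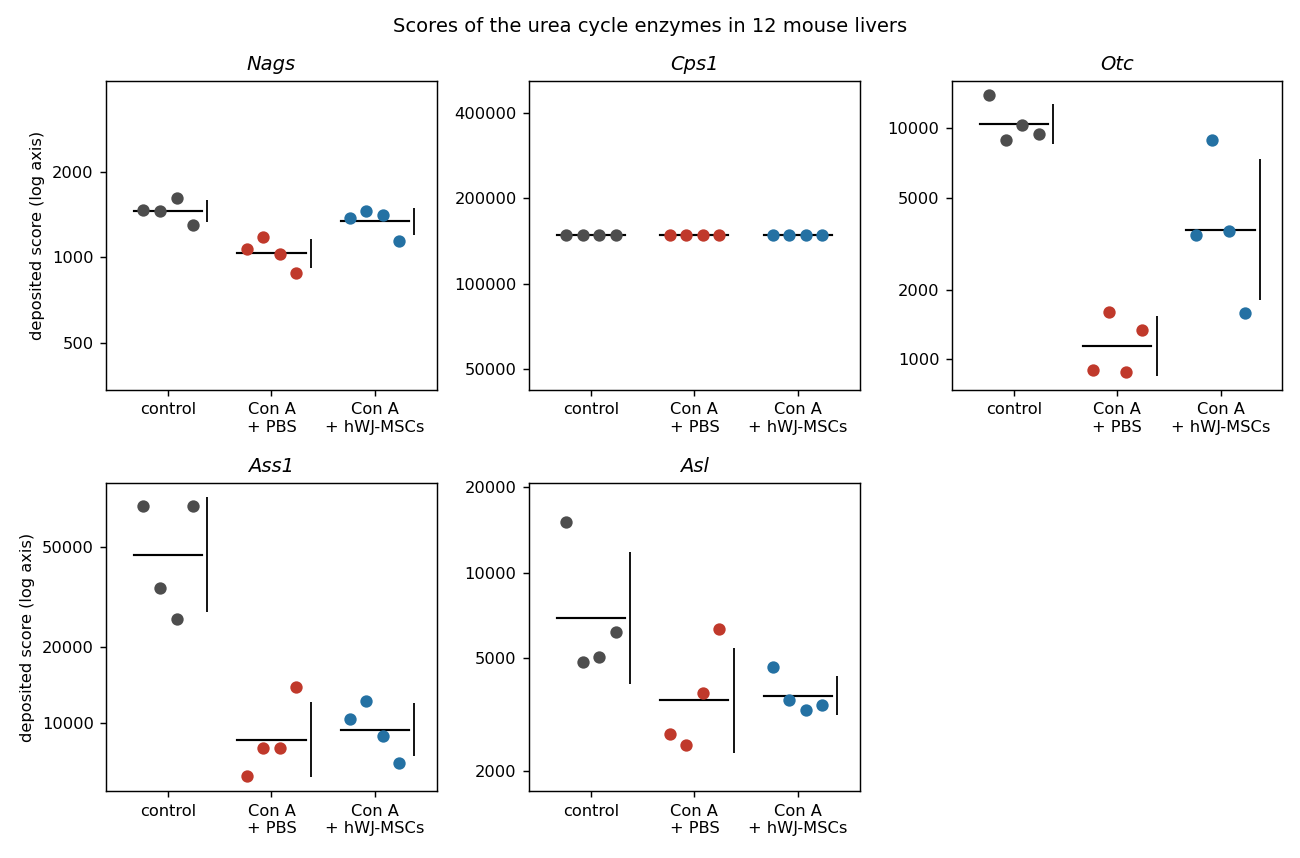
Deposited score of each enzyme (y axis, log scale, a separate range for each gene) in the 3 groups (x axis). Points are the 12 mice, horizontal lines are the group means of log2(score + 1) returned to the score scale, and vertical lines are 1 SD on that scale (n = 4). The 4 Con A + PBS mice lie below all control mice for Nags, Otc and Ass1, and Cps1 is at 147960 throughout.

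Counted over the cycle, 3 of the 5 members were called lower and 0 higher in Con A + PBS versus control, and 2 were called lower where the call of Asl was lost, with only the 8 mice compared and in 5 of the 12 fits with 1 mouse left out. Of all 11289 genes 38.8% were called in that comparison, 19.2% lower and 19.5% higher. The median log2 fold change of the 4 members other than Cps1 was -1.70, against 0.045 for all genes. The groups did not overlap for 3 members, Nags, Otc and Ass1, all lower after Con A, where 50.4% of all genes did not overlap and 23.4% did so with the lower score after Con A. With cells in place of PBS after Con A, 1 member, Otc, was called higher and 0 lower, against 8.58% of all genes called, 4.20% higher and 4.38% lower. That share rests on 969 genes, a number that ran from 7 to 1575 over the fits with 1 mouse left out, and in 6 of these fits Otc was not called. The median of the 4 members other than Cps1 was 0.25 there and that of all genes 0.0, and for 0 members did the groups not overlap (23.5% of all genes). Between the mice with cells and the control mice, Otc and Ass1 were called lower, against 13.1% of all genes called lower and 26.7% in either direction. The medians were -1.22 for the 4 members other than Cps1 and 0.041 for all genes, and the groups did not overlap for Ass1 and Asl, against 37.9% of all genes. These comparisons share mice, so their values are not independent of each other.

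**Figure D3:**
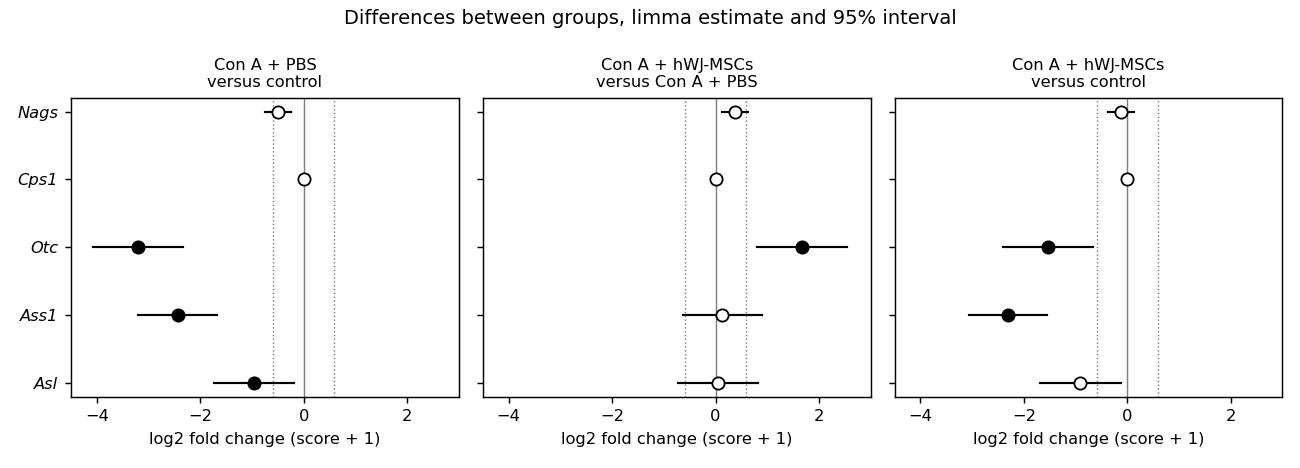
Log2 fold change of score + 1 (x axis) for each enzyme (y axis) in the 3 comparisons, with the 95% interval of the limma fit. Filled points were called (adjusted p below 0.05 and fold change above 1.5, the dotted lines), open points were not, and no interval is drawn for Cps1, whose score was the same in all mice. Otc, Ass1 and Asl are filled in the left panel, Otc in the middle panel, and Otc and Ass1 in the right panel.

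To ask whether the members changed by unequal amounts, the difference between 2 members was taken within each mouse and compared between groups for all 10 pairs. After Con A, 7 pairs separated the groups completely (exact permutation p = 0.0286, adjusted over the 10 pairs p = 0.0408). Otc fell more than Asl, with a difference of -2.25 on the log2 scale, and Ass1 fell more than Asl, with a difference of -1.48. Otc and Ass1 also changed differently from Nags, with differences of 2.71 and 1.95. The difference between Otc and Ass1 was -0.77 and did not pass (exact permutation p = 0.143, adjusted p = 0.159), nor did that between Nags and Asl, 0.47 (exact permutation p = 0.457). Pairs with Cps1 are those of the other member alone, since Cps1 was constant, and 3 of the 7 were of this kind. With hWJ-MSCs against PBS, 0 of 10 pairs passed, and with 4 mice a group at least 6 pairs would have had to separate completely for any to pass. The pair of Otc and Ass1 alone did not overlap, with a difference of 1.54 (exact permutation p = 0.0286, adjusted p = 0.114). Against control, 4 pairs did not overlap, and the smallest adjusted p was 0.0714 by the exact permutation test, which holds the same limit.

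Over the 12 mice, which include the differences between groups, the members most alike were Nags and Otc (Pearson r = 0.86), Ass1 and Asl (r = 0.82) and Otc and Ass1 (r = 0.81). The lowest values were those of Nags with Asl (r = 0.24) and with Ass1 (r = 0.48). These are descriptions over 12 mice in 3 groups. Among 11262 genes, those most like Nags were Ube2r2 (r = 0.984), Cgrrf1 (0.972) and Mrpl49 (0.962). Nearest to Otc were Adck5 (0.989), BC089597 (0.984) and Akr1d1 (0.983), a reductase of bile acid synthesis. Ass1 was closest to Slc16a11 (0.980), Thrsp (0.973) and Sbf2 (0.973). Asl had lower values, with Baz2b (0.944), Pex16 (0.920) and Serpinc1 (0.910), the gene of antithrombin.

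The genes around the cycle were followed in lists of known function. Of 23 listed transporters of amino acids, ammonia and urea, 16 were in the table, of which 7 were called lower and 2 higher after Con A, with a median log2 fold change of -0.01 (19.2% of all genes were called lower and 19.5% higher). The mitochondrial ornithine carrier Slc25a15, which serves the Otc step, had means of 3944 ± 309, 4620 ± 532 and 3751 ± 181 in the control, PBS and cell-treated livers, in that order (SD, n = 4), and was called in none of the 3 comparisons. The aspartate-glutamate carrier Slc25a13, which supplies aspartate to Ass1, was called lower after Con A, by a log2 fold change of -0.60 (limma adjusted p = 0.00519), a call lost in 3 of 12 fits with 1 mouse left out. The amino acid transporter Slc38a4 was lower (-1.85, limma adjusted p = 3.1e-05), and so was the water and ammonia channel Aqp8 (-2.77, limma adjusted p = 6.9e-05). The arginine carrier Slc7a1, low in control livers at 20 to 30, was at 72 to 150 after Con A (1.90, limma adjusted p = 8.6e-05), while Slc7a2, the arginine carrier of hepatocytes, changed by 0.16 (limma adjusted p = 0.618). With hWJ-MSCs 3 of the 16 were called lower and 0 higher than with PBS, counts that ran from 0 to 3 and from 0 to 2 with 1 mouse left out (4.38% of all genes were called lower). Slc7a1 was among them (-0.92, limma adjusted p = 0.0436), a call lost in 8 of 12 fits with 1 mouse left out and with only the 8 mice compared. Without control 1 and Con A + PBS 4, none of these 3 calls was made.

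Genes of glutamine, glutamate and ammonia metabolism mostly fell. All 25 listed genes were in the table, and 16 were called lower and 3 higher after Con A, with a median of -1.27 (19.2% of all genes were called lower). Car5a, the mitochondrial carbonic anhydrase that supplies bicarbonate to Cps1, had scores of 944 to 1084 in control, 9 to 120 in Con A + PBS and 72 to 567 in Con A + hWJ-MSCs livers. Its groups after Con A did not overlap with control, and the log2 fold changes were -4.85 (SE 0.68, limma adjusted p = 8.3e-05) after Con A and 2.39 (SE 0.68, limma adjusted p = 0.0408) with hWJ-MSCs. The latter call of Car5a was lost in 9 of 12 fits with 1 mouse left out, with only the 8 mice compared, and without control 1 and Con A + PBS 4. Gls2, the liver glutaminase that releases ammonia beside Cps1, fell from 6880 ± 645 to 1423 ± 458 (SD, n = 4; log2 fold change -2.34, limma adjusted p = 2.4e-05). Glul, the pericentral glutamine synthetase, fell from 10850 ± 2012 to 1863 ± 123 (-2.52, limma adjusted p = 2.8e-06) and was 2022 ± 835 with hWJ-MSCs (0.04, limma adjusted p = 0.909). Glud1, which releases ammonia from glutamate, had means of 20000, 16362 and 20765 in the 3 groups and was not called after Con A (-0.27, limma adjusted p = 0.179). The transaminases Got1 (-0.64) and Gpt2 (0.38) were not called either. Asns, which makes asparagine from aspartate and glutamine, rose from 12 to 25 in control to 88 to 148 after Con A (2.69, limma adjusted p = 1.7e-05). With hWJ-MSCs 4 of the 25 were called higher and 0 lower than with PBS (4.20% of all genes were called higher), a count that was 1 without control 1 and Con A + PBS 4 and ran from 0 to 9 over the fits with 1 mouse left out. Against control, 12 were called lower and 2 higher (13.1% and 13.6% of all genes).

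Other uses of arginine and ornithine moved in both directions, with 9 of 23 genes in the table called higher and 9 lower after Con A (27 were listed), against 19.5% and 19.2% of all genes. Nos2, the inducible nitric oxide synthase that competes for arginine, was listed at 0, 0, 6 and 0 in the control mice, at 441, 211, 198 and 550 after Con A + PBS, and at 92, 22, 76 and 46 with hWJ-MSCs. It was called higher after Con A (limma adjusted p = 2.8e-06) and lower with hWJ-MSCs than with PBS (-2.59, limma adjusted p = 0.0324), the latter lost in 4 of 12 fits with 1 mouse left out and without control 1 and Con A + PBS 4. Smox, the spermine oxidase, was at 48 to 74, 470 to 1768 and 90 to 328 in the 3 groups, with log2 fold changes of 3.63 after Con A (limma adjusted p = 3.7e-05) and -2.19 with hWJ-MSCs (limma adjusted p = 0.0223), the latter lost in 3 of 12 fits with 1 mouse left out. Odc1, the first enzyme of polyamine synthesis, rose from 786 ± 116 to 2619 ± 1284 (1.64, limma adjusted p = 2.6e-04) and was 1401 ± 325 with hWJ-MSCs (-0.83, limma adjusted p = 0.0569). Aldh18a1, which starts proline and ornithine synthesis from glutamate, rose by 1.24 (limma adjusted p = 0.00212). Oat, the pericentral ornithine aminotransferase, fell by 0.67 (limma adjusted p = 0.0131), a call lost in 2 of 12 fits with 1 mouse left out. Gamt, of creatine synthesis, fell from 4696 ± 1515 to 230 ± 148 (-4.54, limma adjusted p = 4.0e-05). With hWJ-MSCs 3 genes of this list were called higher and 3 lower (4.20% and 4.38% of all genes), which without control 1 and Con A + PBS 4 were 1 and 2, and over the fits with 1 mouse left out ran from 0 to 5 higher and from 0 to 4 lower.

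Of 24 regulators linked to the expression or activity of these enzymes, all in the table, 7 were called lower and 2 higher after Con A, with a median of -0.14, against 38.8% of all genes called. Hnf4a, a factor of hepatocyte genes, changed by 0.23 (limma adjusted p = 0.397), and the glucocorticoid receptor Nr3c1 by -0.14 (limma adjusted p = 0.495), so that neither was called. Among those called lower were Cebpa (-0.90, limma adjusted p = 0.00978), Ppargc1a (-0.67, limma adjusted p = 0.00151, lost in 1 of 12 fits with 1 mouse left out), Klf15 (-1.78, limma adjusted p = 9.9e-05) and the glucagon receptor Gcgr (-1.55, limma adjusted p = 0.00401). Sirt3, a mitochondrial deacetylase for which Otc is a known substrate, had scores of 940 to 1201 in control, 217 to 456 in Con A + PBS and 607 to 797 in Con A + hWJ-MSCs livers. The 3 groups of Sirt3 did not overlap, and both changes were called (-1.56, limma adjusted p = 3.8e-05, and 0.95, limma adjusted p = 0.0220), the latter lost in 3 of 12 fits with 1 mouse left out. Cebpb was not called after Con A (0.30, limma adjusted p = 0.467) and was lower with hWJ-MSCs than with PBS (-1.23, limma adjusted p = 0.0375), a call lost in 6 of 12 fits with 1 mouse left out, with only the 8 mice compared, and without control 1 and Con A + PBS 4. With hWJ-MSCs 2 of the 24 were called higher and 1 lower than with PBS (4.20% and 4.38% of all genes). These counts ran from 0 to 5 and from 0 to 4 with 1 mouse left out.

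The zones of the lobule were compared through genes other than the members. Among 16 periportal genes 9 were called lower and 1 higher after Con A, with a median of -1.37, and among 16 pericentral genes 13 were called lower and 0 higher, with a median of -1.79 (19.2% of all genes were called lower and 19.5% higher). Of the periportal genes Hsd17b6 (-3.54, limma adjusted p = 3.0e-05) and Cyp2f2 (-2.96, limma adjusted p = 3.7e-06) fell most, together with Gls2. Of the pericentral genes the cytochromes Cyp1a2 (-4.39, limma adjusted p = 6.0e-07), Cyp2c29 (-4.23, limma adjusted p = 5.1e-06) and Cyp2c37 (-3.20, limma adjusted p = 6.7e-05) fell most. With hWJ-MSCs 2 periportal genes and 1 pericentral gene were called higher (4.20% of all genes), counts that ran from 0 to 6 and from 0 to 4 with 1 mouse left out. Hsd17b6 was among them (2.32, limma adjusted p = 0.0188), a call lost in 3 of 12 fits with 1 mouse left out. Against control, 8 periportal genes were called lower and 2 higher, and 11 pericentral genes were called lower and 0 higher (13.1% of all genes were called lower and 13.6% higher).

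**Figure D4:**
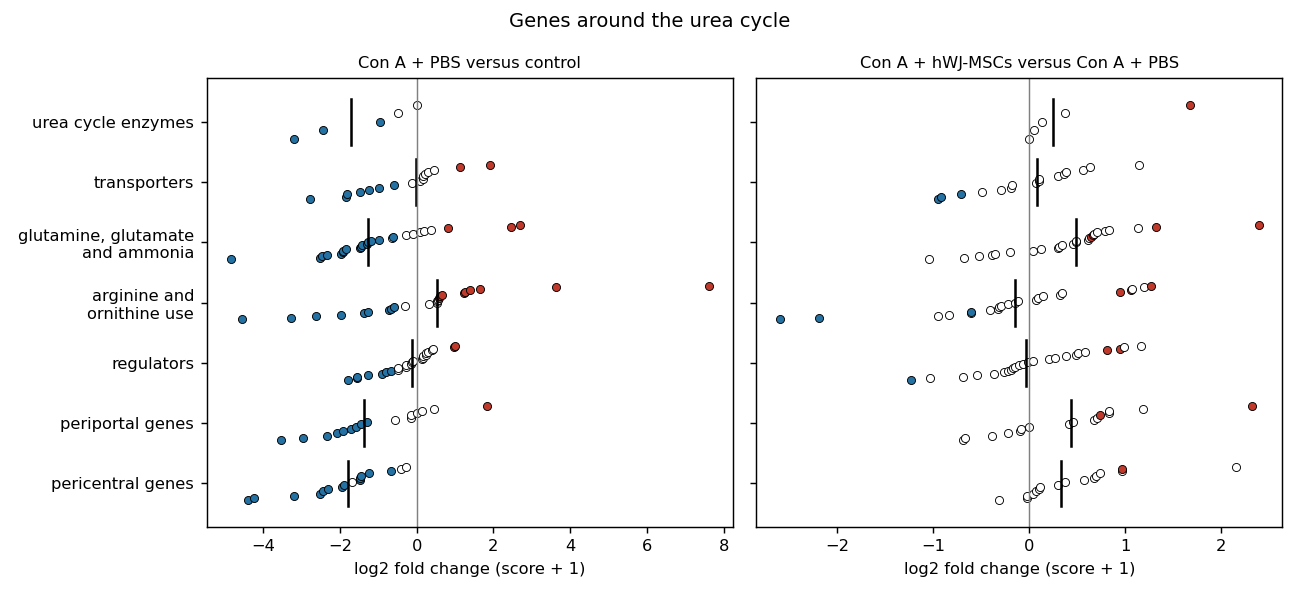
Log2 fold change of score + 1 (x axis) for the genes of the cycle and of the related lists (y axis), after Con A (left panel) and with cells in place of PBS (right panel), on different x ranges. Each point is a gene, red was called higher, blue lower and white not called, and black bars are list medians, that of the cycle without Cps1. The medians after Con A lie at -1.27 for glutamine, glutamate and ammonia genes, -1.37 for periportal and -1.79 for pericentral genes, and at 0.52 for arginine and ornithine use.

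Markers of the liver's cell types were read from the same mice. Of 11 hepatocyte markers in the table (12 listed), 6 were at the largest score in at least 1 mouse. After Con A 5 of the 11 were called lower and 2 higher, against 19.2% and 19.5% of all genes. The summed score of the 11 markers was 1450966 to 1837994 in control, 1190884 to 1285736 in Con A + PBS and 1460882 to 1535778 in Con A + hWJ-MSCs livers. Hpx, the 1 marker of these called with cells against PBS, was at 147377 in each Con A + PBS mouse and at the largest score, 341028, in each mouse with cells, a step that makes up most of the difference between these sums. All 6 neutrophil markers in the table (10 listed) were called higher after Con A, against 19.5% of all genes. They summed to 70 to 147 in control, 1092 to 1982 in Con A + PBS and 851 to 1715 in Con A + hWJ-MSCs livers. The 4 T cell markers in the table, Cd28, Cd8a, Lck and Thy1, were all called higher after Con A, against 19.5% of all genes. Their sums were 31 to 86, 344 to 603 and 361 to 474 in the 3 groups, and the other 8 listed were not analysed here. Macrophage and monocyte markers summed to 6643 to 10456, 2730 to 3683 and 1722 to 4009 in the 3 groups. After Con A 10 of 14 were called lower and 4 higher, against 19.2% and 19.5% of all genes. Called higher were Ly6c2 (4.62), Cd68 (2.89), Itgam (1.57) and Ccr2 (0.72). Those called lower were C1qa, C1qb, C1qc, Cd5l, Clec4f, Csf1r, Lyz2, Marco, Timd4 and Vsig4. By flow cytometry the paper found more macrophages after Con A, which these RNA sums do not measure. The 10 endothelial markers summed to 4268 to 5896, 2016 to 2927 and 2418 to 3436. Of these, 7 were called lower and 1, Lyve1 (1.29), higher after Con A, against 19.2% and 19.5% of all genes. Pecam1 (0.22) and Cdh5 (-0.27) were not called. The erythroid markers summed to 4599 to 8524, 1981 to 3391 and 1687 to 2608. Of 10 listed markers of alternatively activated macrophages 3 were in the table. Mrc1 fell from a mean of 537 to 91 and Cd163 from 200 to 15.5, while Chil3 rose from 70.5 to 575. The part of these cells in the values of the urea cycle enzymes was not tested.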

How the data were processed

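Poly-A RNA of 12 mouse livers, 4 per group, was sequenced with a kit that does not mark strand. The submitters' processing notes name Bowtie2 2.2.1, RSEM 1.2.18 and the build mm10, without their order. The authors deposited 1 score per gene and mouse, a whole number already normalized between mice by a method not given in the sources used here. Totals differed by 0.0425% of their median over the mice, so depth is unknown, and every gene reached 64 in at least 2 mice.

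The log2 of score + 1 entered a limma 3.58.1 model (R 4.3.3, lmFit, eBayes with a trend, all 12 mice, no covariates). P-values were adjusted by Benjamini-Hochberg over 11289 genes, and a call needed an adjusted p below 0.05 together with a fold change over 1.5. Fold changes on this scale understate those of low genes. The study's methods name DESeq2, which needs counts and was not run. Single values and pairs of members were compared by two-sided exact permutation tests in Python 3.11.15 with scipy 1.17.1 (pandas 2.3.3, numpy 2.4.6, matplotlib 3.10.9). Samples were grouped by their titles, and 0 columns of per-sample values were left out. Tested on simulated data for Con A + PBS versus control, with 200 of 11289 genes changed, the fit called 62.5% of those shifted by a log2 value of 0.8 and 89.5% of those shifted by 1.5, and 5.30% and 1.65% of its calls, in that order, were of genes that had not been changed.

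Members, lists and tests were chosen with earlier results of these data known. Results for part of the chosen genes are left out. Named were the members, a fixed set of genes linked to the cycle, the 3 largest called Con A changes of each list, and the 3 genes most like each member. Other settings tried were median centring, a pseudocount of 10, a minimum mean score of 100, eBayes without a trend, only the 8 mice compared, a replicate block and each mouse left out. Leaving out control 1 with Con A + PBS 4, and leaving out genes at the largest score, were added after seeing the data.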

Additional observations from a re-analysis of the deposited data

How the results depend on the processing

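The calls of Otc and Ass1 in Con A + PBS versus control and in Con A + hWJ-MSCs versus control kept their direction and their call under all 8 other settings and all 12 fits that left out 1 mouse. Members called with hWJ-MSCs against PBS numbered 0 instead of 1 with only the 8 mice compared, and 0 to 1 with 1 mouse left out (2 to 3 in both other comparisons). Genes called with hWJ-MSCs against PBS numbered 969, 566 without control 1 and Con A + PBS 4, and 7 to 1575 with 1 mouse left out: 7 without Con A + PBS 1 or Con A + hWJ-MSCs 3, 18 without Con A + hWJ-MSCs 2, 285 without Con A + PBS 4, 506 without Con A + hWJ-MSCs 1, 563 without Con A + PBS 3 and 1575 without Con A + PBS 2. The other comparisons gave 4093 to 4575 and 2654 to 3254. Of the other named genes called with hWJ-MSCs against PBS, 3 lost the call with only the 8 mice compared (Car5a, Cebpb and Slc7a1) and 4 without control 1 and Con A + PBS 4 (these and Nos2). Changes of sign were found only for values near 0, none of them called. Without control 1 and Con A + PBS 4 they were 0.31 for Cyp1a2 with hWJ-MSCs against PBS, and -0.05 for Glud1 and -0.22 for Hnf4a against control. With 1 mouse left out, those with hWJ-MSCs against PBS ran from -0.12 to 0.33 for Asl, -0.03 to 0.37 for Ass1, -0.22 to 0.31 for Cyp1a2, -0.31 to 0.48 for Cyp2c37 and -0.21 to 0.14 for Glul. Those with hWJ-MSCs against control ran from -0.05 to 0.16 for Glud1, -0.13 to 0.15 for Gpt2 and -0.22 to 0.20 for Hnf4a, and those after Con A from 0.00 to 0.42 for Hnf4a, -0.28 to 0.01 for Nr3c1 and -0.13 to 0.34 for Slc7a2. The causes were not tested. The replicate numbers belong to different mice and did not pair them: same-numbered mice correlated by -0.12 to 0.37 over 12 pairs, over 0.1 in 4 pairs, and 4 mice matched best with their own number. With the replicate number as a block the members called stayed 3, 1 and 2, the genes called were 4429, 1297 and 3080, and 4 other named genes gained a call with hWJ-MSCs against PBS (Cyp2f2, Gcgr, Odc1 and Slc38a4). Depth limits could not be stated, because the scores carry none, and changes of Cps1 within its step could not be read.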
